A study of Homo sapiens with 12 samples.

Results

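The 35 genes described here encode proteins that carry a cell through mitosis: the kinases and cyclins of mitotic entry, the spindle checkpoint and the enzymes of chromatid separation, kinetochore proteins, spindle motors and microtubule proteins, and proteins of mitotic chromosomes. They were taken as a named list of symbols. A gene was measured by the probe set that the array annotation assigns to that symbol alone, and where a gene had several such probe sets, by the one with the highest mean over the 12 arrays. All 35 had a probe set, out of 18417 genes measured in this way, and BIRC5 was the only one with more than 1. The cells were Caco-2, an established line from a human colon carcinoma that is used as a model of intestinal epithelium, and the arrays were Affymetrix whole-transcript arrays.

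There were 4 groups of 3 RNA samples. In 3 of them, clones selected with 1 µg/ml blasticidin stably overexpressed TLR4, the membrane receptor for bacterial lipopolysaccharide, with an HA tag. TLR4-WT clones carried the wild-type receptor, and TLR4-D299G and TLR4-T399I clones each carried a receptor with the amino acid substitution in its name. Each plasmid had been transfected at 1 µg per well. The fourth group was untransfected Caco-2 cells that received no foreign DNA and, as far as the labels say, no blasticidin. There was no group with an empty vector, so carrying a plasmid and carrying TLR4 cannot be told apart. All cells had grown for 8 days before RNA was taken. The labels give neither the number of clones in a line nor whether the 3 samples were separate cultures. The spread behind the p-values is therefore that of these samples and may be only technical, and differences between lines and differences between clones cannot be told apart.

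Values are log2 expression values, so a difference of 1 is a doubling, and the number of arrays limits their precision. Array medians ran from 6.88 to 6.97, and arrays of one group correlated more closely (r from 0.9902 to 0.9959) than many of different groups (0.9769 to 0.9925). As a check of the labels, TLR4 read 4.83 ± 0.27 (SD, n = 3) without transfection, against 8.61 ± 0.11, 8.81 ± 0.08 and 8.34 ± 0.05 in the TLR4-WT, TLR4-D299G and TLR4-T399I lines. TLR4 was lower in the TLR4-T399I than in the TLR4-D299G line by 0.47 (SE 0.12, limma, adjusted p = 0.0214). The 8 epithelial markers, among them EPCAM, CDH1 and KRT8, had a median gene mean of 11.98 to 12.34 per group. The 7 fibroblast markers had 6.49 to 6.77, the 6 measured leukocyte markers 5.48 to 5.80 and the 4 endothelial markers 5.75 to 5.98. Single markers departed from these medians. The lowest gene mean of the epithelial list was 6 to 6.95 per group. The highest was 8.06 to 8.31 in the fibroblast list and 9.40 to 9.91 in the leukocyte list. Differences were called at an adjusted p under 0.05 from limma, a linear model with moderated variances that was fitted to all arrays and adjusted over 33297 probe sets. The shares of all probe sets given below include probe sets without a gene symbol. Over the 18417 genes measured the shares called were larger in every comparison.

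Mitotic genes are transcribed late in the cell cycle, and their RNA is high from G2 into mitosis and low in resting cells. Many of their promoters hold a cell cycle genes homology region (CHR) close to the transcription start, to which the MuvB complex binds through LIN54, and upstream of it CCAAT boxes, to which NF-Y binds. MuvB recruits repressors in resting cells and the activators B-MYB and FOXM1 in dividing ones. In the intestine these genes mark the dividing cells of the crypt, and Caco-2 cells slow their division as a culture becomes confluent and differentiates. In RNA from a whole culture, fewer cells in mitosis and less of these RNAs per cell cannot be told apart.

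Promoter windows of 300 bases, from 250 before to 50 after the transcription start, were taken from RefSeq (GRCh38.p14) for 30 of the 35 genes. AURKA, TTK, UBE2C, TPX2 and BIRC5 had no window here, and CDK1, CDC25C and AURKB had several, which made 35 windows. Both strands were searched for TTTGAA, the common form of the CHR, and for CCAAT, with overlapping matches allowed. TTTGAA was in 25 of the 35 windows (71.4%) and in 15.2% of all 35116 windows of this length. CCAAT was in 26 (74.3%, against 34.6% of all windows), and both were in 20 (57.1%, against 5.9%). The CHR variant TTTAAA was in 11 windows (31.4%, against 12.2%). CENPE and KIF2C held neither TTTGAA nor CCAAT in their windows. A match is a description of the letters, not evidence of binding.

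The 110 bases before the transcription start are given for 9 genes that stand for the patterns reported here. PLK1 and CDC20 were lowest in untransfected cells, ESPL1 was highest in the TLR4-T399I line, PRC1, MKI67 and CCNB2 were lowest and KIF4A highest in the TLR4-D299G line, KIF11 was highest in untransfected cells, and KIF18A was lowest in the TLR4-WT line. Each is written 5′ to 3′ along its gene. Capitals mark TTTGAA and CCAAT on either strand, so that matches on the other strand read TTCAAA and ATTGG.
PLK1 (chr16:23678779-23678888, plus strand): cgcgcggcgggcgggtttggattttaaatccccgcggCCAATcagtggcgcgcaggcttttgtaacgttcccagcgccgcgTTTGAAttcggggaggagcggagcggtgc
CDC20 (chr1:43358871-43358980, plus strand): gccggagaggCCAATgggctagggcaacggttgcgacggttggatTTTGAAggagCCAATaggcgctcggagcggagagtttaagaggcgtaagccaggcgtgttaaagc
ESPL1 (chr12:53268189-53268298, plus strand): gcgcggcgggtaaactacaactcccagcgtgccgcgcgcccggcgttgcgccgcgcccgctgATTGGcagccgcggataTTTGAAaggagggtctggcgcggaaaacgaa
PRC1 (chr15:90994536-90994645, minus strand): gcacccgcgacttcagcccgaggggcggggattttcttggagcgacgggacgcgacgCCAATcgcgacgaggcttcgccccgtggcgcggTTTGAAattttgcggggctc
MKI67 (chr10:128126424-128126533, minus strand): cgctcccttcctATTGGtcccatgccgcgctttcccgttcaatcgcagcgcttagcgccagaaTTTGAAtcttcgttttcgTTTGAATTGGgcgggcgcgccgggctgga
CCNB2 (chr15:59105036-59105145, plus strand): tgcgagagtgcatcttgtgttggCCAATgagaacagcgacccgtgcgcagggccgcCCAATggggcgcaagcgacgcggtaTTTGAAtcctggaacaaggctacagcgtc
KIF4A (chrX:70289994-70290103, plus strand): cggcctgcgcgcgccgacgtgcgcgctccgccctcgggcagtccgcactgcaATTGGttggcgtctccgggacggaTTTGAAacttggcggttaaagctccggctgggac
KIF11 (chr10:92593020-92593129, plus strand): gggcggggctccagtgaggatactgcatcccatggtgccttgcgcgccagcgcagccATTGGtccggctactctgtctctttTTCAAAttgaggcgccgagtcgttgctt
KIF18A (chr11:28108157-28108266, minus strand): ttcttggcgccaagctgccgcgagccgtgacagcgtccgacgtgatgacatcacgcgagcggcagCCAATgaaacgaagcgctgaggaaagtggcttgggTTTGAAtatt
In MKI67 the second TTTGAA and an ATTGG overlap. All 9 sequences held both motifs within these bases. They were chosen from the genes reported here with their motifs known, so they do not stand for the 35 genes, of which some windows held 1 motif or neither.

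The mitotic genes were highest in the TLR4-T399I line. Of the 35 genes, 29 had their highest group mean there and none had its lowest there. The untransfected cells held the highest mean of 4 genes, the TLR4-D299G line of 1 gene and the TLR4-WT line of none, with UBE2C tied between the TLR4-WT and TLR4-T399I lines. The lowest mean was that of untransfected cells for 13 genes, TLR4-WT for 12 and TLR4-D299G for 10. By limma's moderated F test 41.9% of all probe sets differed among the 4 groups, as did 9647 of the 18417 genes measured. Of the 35 genes 34 did. BIRC5, which encodes the survivin subunit of the chromosomal passenger complex, was the exception (adjusted p = 0.192).

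**Figure D1:**
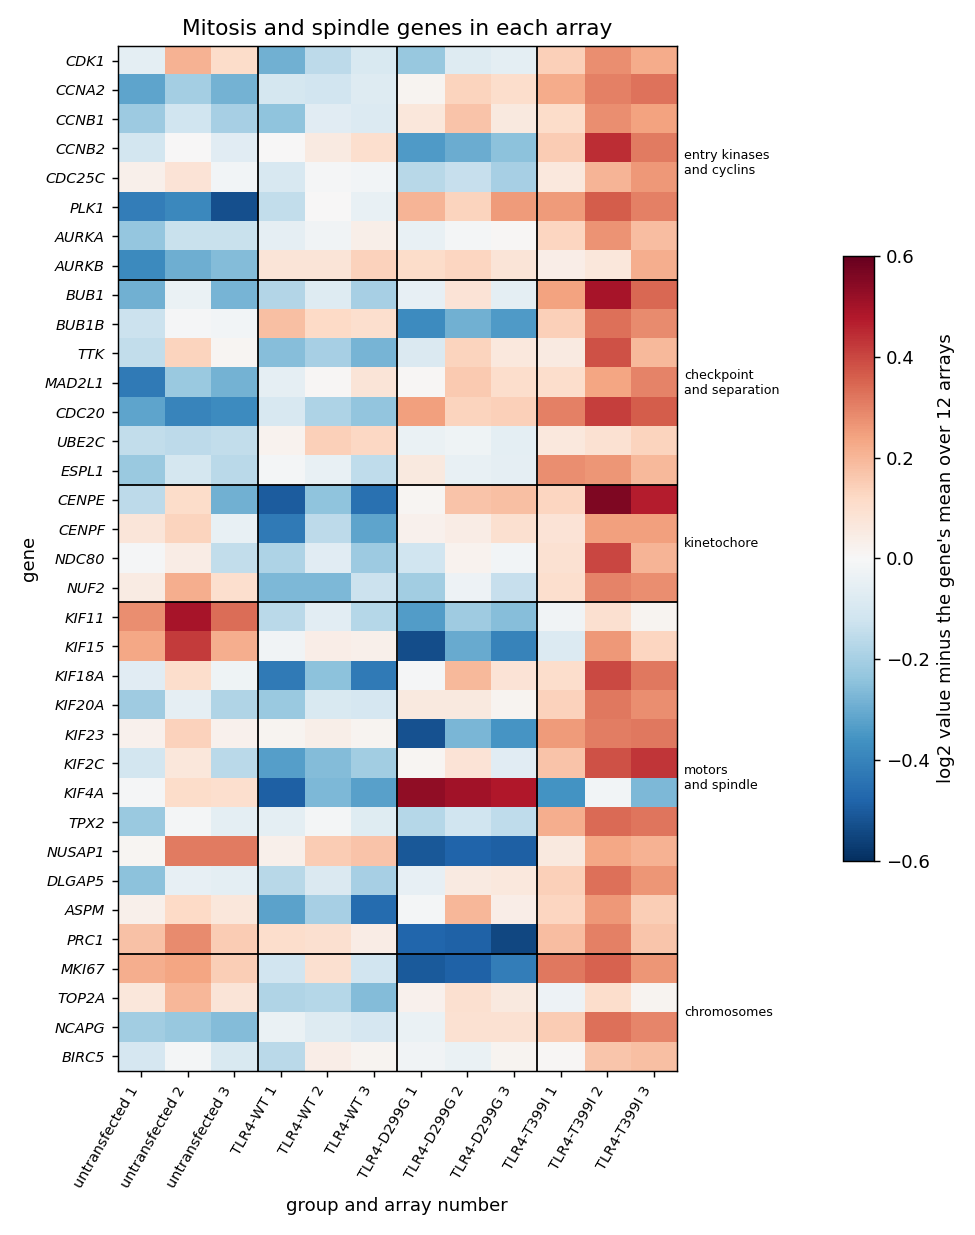
Each gene in each of the 12 arrays, as the log2 value minus that gene's mean over all arrays, with genes as rows ordered by role and arrays as columns in 4 groups of 3. The TLR4-T399I columns are above the gene's mean in 31 to 34 of 35 rows, and the TLR4-D299G columns are dark blue in PRC1, NUSAP1, MKI67 and KIF23 and dark red in KIF4A.

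Against the TLR4-WT line, 22 mitotic genes were higher in the TLR4-T399I line and 0 were lower, where 5.9% of all probe sets were called higher and 4.48% lower. Over all genes measured these shares were 8.37% and 6.02%. The median difference over the 35 genes was 0.34, against -0.02 over all genes measured. Without the chromosome 15 genes BUB1B, NUSAP1, KIF23 and CCNB2, 21 of 31 were higher and 0 lower, with a median of 0.36. Against untransfected cells, 20 were higher and 2 lower (14.6% and 14.8% of all probe sets, 18.1% and 18.5% of all genes), with a median of 0.27 against 0.05 over all genes. Without the 4 chromosome 15 genes these were 17 and 2 of 31, with the same median of 0.27. Comparisons with untransfected cells share the same 3 control arrays, and comparisons with the TLR4-WT line share those of that line.

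The TLR4-T399I counts depended on the arrays used. In every group the array numbered 2 read highest for most of the 35 genes: 31 in untransfected cells, 21 in TLR4-WT, 22 in TLR4-D299G and 26 in TLR4-T399I cells. The median deviation of the 35 genes from their own means was 0.13, 0.30 and 0.26 in the 3 TLR4-T399I arrays. It was -0.15, -0.07 and -0.10 in the TLR4-WT arrays, -0.04, 0.04 and 0.01 in the TLR4-D299G arrays, and -0.11, 0.04 and -0.06 in the untransfected ones. Every TLR4-T399I array lay above every other array by this measure. With all 4 arrays numbered 2 left out, a choice made after the data were seen, 4 genes rather than 22 were called higher in the TLR4-T399I than in the TLR4-WT line (ASPM, BUB1, CENPE and KIF18A), where 1.08% of probe sets were. The median difference was then 0.335.

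**Figure D2:**
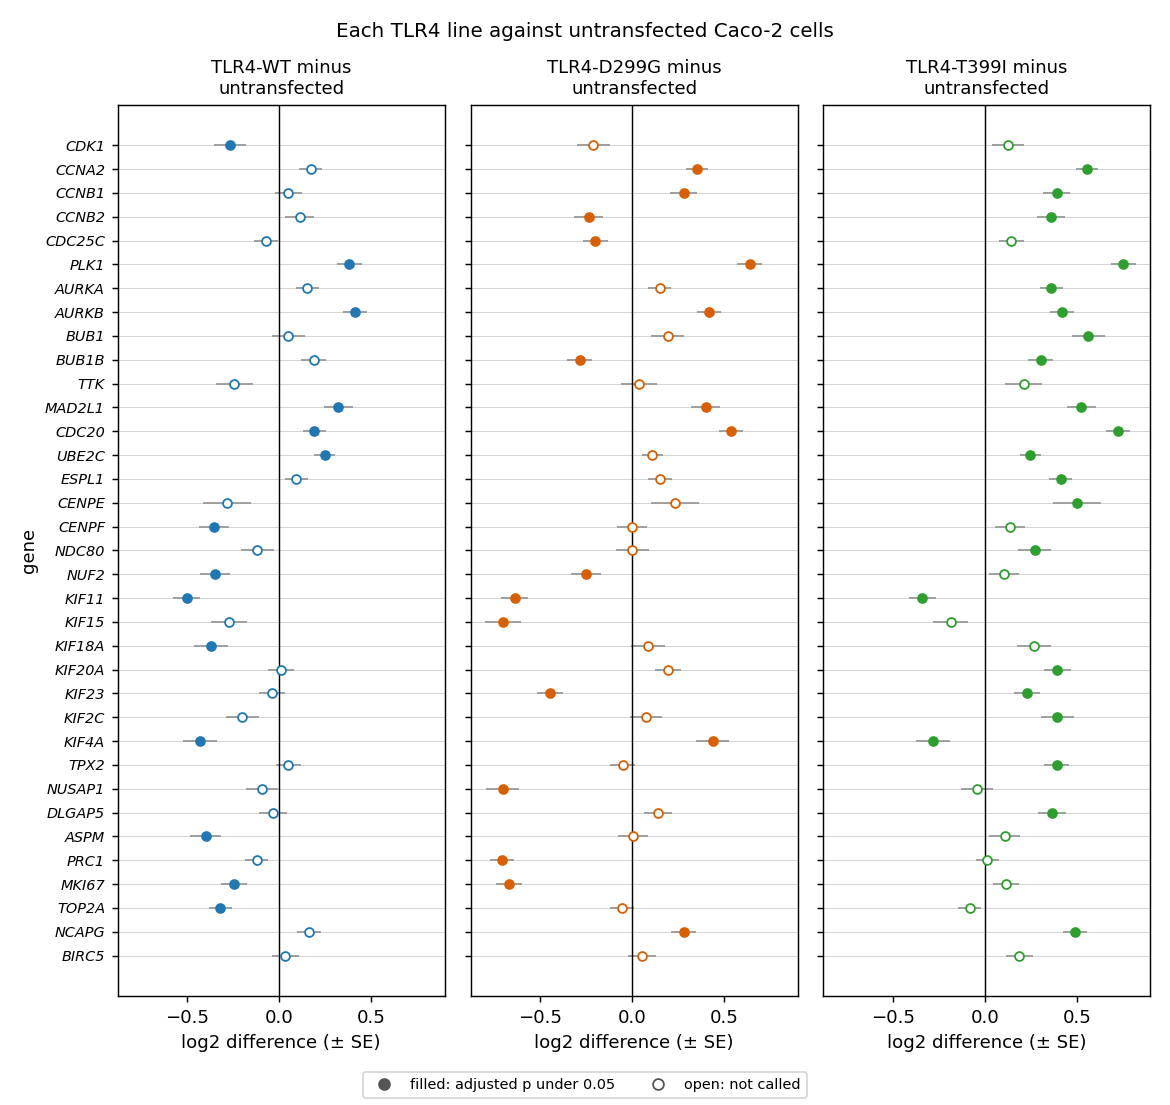
Difference of each TLR4 line from untransfected cells for the 35 genes, on the log2 scale with the SE of the fit, in 1 panel per line. Filled points were called at an adjusted p under 0.05: 5 higher and 9 lower in TLR4-WT, 8 and 10 in TLR4-D299G, and 20 and 2 in TLR4-T399I cells.

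Of the 8 kinases and cyclins of mitotic entry, 6 were higher in the TLR4-T399I line than in untransfected cells and none was lower, where 14.6% and 14.8% of all probe sets were, and 4 were higher than in the TLR4-WT line, where 5.9% were. PLK1, the polo-like kinase that drives entry, centrosome maturation and cytokinesis, read 10.33, 10.36 and 10.22 in untransfected cells, 10.60, 10.75 and 10.70 in TLR4-WT, 10.95, 10.88 and 11 in TLR4-D299G, and 11, 11.11 and 11.05 in TLR4-T399I cells. The untransfected arrays lay below all 9 others and the TLR4-WT arrays below those of both mutant lines, while the mutant lines met at 11. PLK1 was thus 1.68-fold higher in the TLR4-T399I line than in untransfected cells (log2 difference 0.75, SE 0.07, limma, adjusted p = 1.48e-05). It was higher by 0.64 in the TLR4-D299G line (adjusted p = 3.97e-05) and by 0.38 in the TLR4-WT line (adjusted p = 0.00167).

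The cyclins of this group rose in the TLR4-T399I line. CCNA2, the cyclin of S phase and early mitosis, read 10.54 to 10.65 in untransfected cells, 10.74 to 10.78 in TLR4-WT, 10.87 to 10.99 in TLR4-D299G and 11.08 to 11.18 in TLR4-T399I cells, with no overlap between any of the groups. Its difference from untransfected cells was 0.55 (SE 0.06, limma, adjusted p = 5.71e-05) in the TLR4-T399I line and 0.35 (adjusted p = 0.00106) in the TLR4-D299G line. CCNB1, the main mitotic cyclin, was higher by 0.39 (adjusted p = 0.00206) and 0.28 (adjusted p = 0.0121) in the same lines. Its call in the TLR4-D299G line was lost under 3 of the alternatives, among them centring each array on its median (limma, adjusted p = 0.0568). CDK1, the kinase that CCNB1 activates, had its lowest mean in the TLR4-WT line, at 10.80 ± 0.10 (SD, n = 3) against 11.07 ± 0.14 in untransfected cells (limma, adjusted p = 0.0388), and read 11.19 ± 0.07 in the TLR4-T399I line. The fall in the TLR4-WT line was lost under 9 of the alternatives, among them a fit of only the 2 groups (adjusted p = 0.09) and leaving out TLR4-WT replicate 1 (adjusted p = 0.138) or untransfected replicate 2 (adjusted p = 0.137). The TLR4-T399I line was above the TLR4-WT line by 0.39 (adjusted p = 0.0152) and above the TLR4-D299G line by 0.34 (adjusted p = 0.0255). Neither call was made without TLR4-T399I replicate 2 (adjusted p = 0.0592 and 0.091) or replicate 3 (adjusted p = 0.054 and 0.0763), and the first was also lost without TLR4-WT replicate 1 (adjusted p = 0.0688) and the second without TLR4-D299G replicate 1 or 2 (adjusted p = 0.101 and 0.0559). The 20 nearest genes of CDK1 had a median of -0.16 between the TLR4-WT line and untransfected cells, with 0 called higher and 9 lower. Their part in the result was not tested.

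The Aurora kinases differed from each other. AURKB, the kinase of the chromosomal passenger complex, read 9.13, 9.22 and 9.25 in untransfected cells and between 9.55 and 9.73 in all 9 arrays of the TLR4 lines. It was higher by 0.41, 0.42 and 0.42 in the TLR4-WT, TLR4-D299G and TLR4-T399I lines (SE 0.07 each, limma, adjusted p = 0.000796, 0.000577 and 0.000635). Between the lines its differences were 0.01 or less, with no call. AURKA, which acts at the centrosome and is activated by TPX2, was called in the TLR4-T399I line (0.36 above untransfected cells, adjusted p = 0.00116). Its values against untransfected cells were 0.15 and 0.15 in the TLR4-WT and TLR4-D299G lines, neither called. The 20 nearest genes of AURKA had medians of 0.22, 0.16 and 0.17 in the TLR4-WT, TLR4-D299G and TLR4-T399I lines. Of these, 8, 5 and 8 were called higher and 2, 2 and 1 lower. The 20 nearest genes of AURKB had medians of 0.19, 0.08 and 0.15, with 6, 5 and 6 called higher and 1 lower in each line. What these neighbours contribute was not tested. CDC25C, the phosphatase that activates CDK1, was lower in the TLR4-D299G line than in untransfected cells by 0.20 (SE 0.07, limma, adjusted p = 0.0372). That call was lost under 9 of the alternatives, among them normalising the values by quantiles again (adjusted p = 0.114) and leaving out any 1 TLR4-D299G array (adjusted p = 0.0666 to 0.109).

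Of the 7 genes of the spindle checkpoint and chromatid separation, 6 were higher in the TLR4-T399I line than in untransfected cells, where 14.6% of all probe sets were, and TTK was the one not called. CDC20, the activator of the anaphase-promoting complex, read 9.96, 9.88 and 9.90 in untransfected cells, 10.18, 10.09 and 10.04 in TLR4-WT, 10.52, 10.41 and 10.42 in TLR4-D299G, and 10.58, 10.69 and 10.64 in TLR4-T399I cells. The 4 groups did not overlap. CDC20 was 1.65-fold higher in the TLR4-T399I line than in untransfected cells (log2 difference 0.72, SE 0.06, limma, adjusted p = 1.21e-05) and 1.45-fold higher in the TLR4-D299G line (adjusted p = 8.76e-05). The rise of 0.19 in the TLR4-WT line (adjusted p = 0.0428) was lost under 12 of the alternatives, and was not called when each array was centred on its median (adjusted p = 0.201).

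BUB1, the checkpoint kinase at the kinetochore, read 9.68, 9.93 and 9.69 in untransfected cells, 9.79, 9.89 and 9.77 in TLR4-WT, 9.92, 10.05 and 9.91 in TLR4-D299G, and 10.21, 10.46 and 10.31 in TLR4-T399I cells. The TLR4-T399I arrays lay above all 9 others, which overlapped in part. BUB1 was higher in that line by 0.56 against untransfected cells, 0.51 against TLR4-WT and 0.37 against TLR4-D299G (SE 0.09, limma, adjusted p = 0.000791, 0.00449 and 0.0191). ESPL1, the separase that cuts cohesin, was likewise above all other groups, by 0.41, 0.32 and 0.26 (limma, adjusted p = 0.000722, 0.0102 and 0.021). The call of ESPL1 against the TLR4-D299G line was lost under 6 of the alternatives, among them a fit of only the 2 groups (adjusted p = 0.0596) and leaving out TLR4-D299G replicate 3 (adjusted p = 0.0875). That of BUB1 was lost without TLR4-D299G replicate 1 or 3 (adjusted p = 0.067 and 0.0769), without TLR4-T399I replicate 2 or 3 (adjusted p = 0.0766 and 0.0535), and with all 4 arrays numbered 2 left out (adjusted p = 0.0659).

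The other genes of this role split between the lines. MAD2L1, the checkpoint protein that holds CDC20 inactive, read 9.79 to 9.99 in untransfected cells and 10.16 to 10.51 in the 9 arrays of the TLR4 lines. It was higher by 0.32, 0.40 and 0.52 in the TLR4-WT, TLR4-D299G and TLR4-T399I lines (SE 0.08, limma, adjusted p = 0.00982, 0.00242 and 0.000488). UBE2C, the ubiquitin-conjugating enzyme of the anaphase-promoting complex, was higher by 0.25 in the TLR4-WT and in the TLR4-T399I line (limma, adjusted p = 0.00653 and 0.00649), with 0.11 in the TLR4-D299G line, which was not called. TTK, the kinase that starts the checkpoint signal, had its lowest mean in the TLR4-WT line, and the TLR4-T399I line was above it by 0.45 (SE 0.10, limma, adjusted p = 0.0146). That call was lost without TLR4-WT replicate 1 or 3 or TLR4-T399I replicate 2 (adjusted p = 0.0522 to 0.0549). Of its 20 nearest genes on chromosome 6, 11 were called lower in the TLR4-WT line than in untransfected cells (median -0.37), and 4 were higher and 3 lower between the TLR4-T399I and TLR4-WT lines (median 0.04); what they contribute was not tested. BUB1B is described with chromosome 15.

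All 4 kinetochore genes were higher in the TLR4-T399I than in the TLR4-WT line, where 5.9% of all probe sets were. CENPE, the kinesin that carries chromosomes to the metaphase plate, read 7.22, 7.48 and 7.27 in the TLR4-WT line, 7.56, 7.83 and 7.43 in untransfected cells, 7.73, 7.89 and 7.90 in TLR4-D299G, and 7.85, 8.28 and 8.19 in TLR4-T399I cells. The TLR4-WT arrays lay below those of both mutant lines and overlapped those of untransfected cells. The difference of 0.78 between the TLR4-T399I and TLR4-WT lines (1.72-fold, SE 0.13, limma, adjusted p = 0.00343) was the largest of that comparison among the 35 genes. The 20 nearest genes of CENPE on chromosome 4 had a median of 0.12 in that comparison, with 5 called higher and 2 lower, and of -0.28 between the TLR4-WT line and untransfected cells, with 11 called lower; what they contribute was not tested. NUF2, a subunit of the NDC80 complex that binds microtubules, was higher by 0.45 (adjusted p = 0.00528), CENPF, a large kinetochore and nuclear matrix protein, by 0.49 (adjusted p = 0.00364) and NDC80, which names that complex, by 0.39 (adjusted p = 0.018, lost under 6 of the alternatives). The 20 nearest genes of CENPF had a median of 0.31 between the TLR4-T399I and TLR4-WT lines, with 8 called higher and 0 lower. What they contribute was not tested. Against untransfected cells, NUF2 was lower in the TLR4-WT and TLR4-D299G lines, by 0.35 and 0.25 (limma, adjusted p = 0.00813 and 0.0345). The second of these calls was lost under 7 of the alternatives, among them normalising by quantiles again (adjusted p = 0.102) and leaving out TLR4-D299G replicate 1 (adjusted p = 0.115) or untransfected replicate 2 (adjusted p = 0.121). NDC80 was higher than in untransfected cells in the TLR4-T399I line by 0.27 (adjusted p = 0.0426), a call lost under 12 of the alternatives, among them centring each array on its median (adjusted p = 0.0921).

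The TLR4-T399I line had 5 of the 12 motor and spindle genes higher than in untransfected cells and 2 lower, where 14.6% and 14.8% of all probe sets were. In the TLR4-D299G line 1 was higher and 5 lower, against 17.5% and 17.9% of all probe sets. Of these 5, KIF23, NUSAP1 and PRC1 lie on chromosome 15, and the others were KIF11 and KIF15. TPX2, which nucleates spindle microtubules and activates AURKA, read 11.05, 11.26 and 11.21 in untransfected cells, 11.21, 11.26 and 11.20 in TLR4-WT, 11.10, 11.15 and 11.12 in TLR4-D299G, and 11.49, 11.61 and 11.59 in TLR4-T399I cells. The TLR4-T399I arrays lay above all others. TPX2 was higher there by 0.39, 0.34 and 0.44 than in untransfected cells, the TLR4-WT line and the TLR4-D299G line (SE 0.07, limma, adjusted p = 0.00133, 0.00878 and 0.00126).

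KIF2C, a kinesin that depolymerises microtubules at the centromere, was also above each other group in the TLR4-T399I line, by 0.39, 0.59 and 0.32 in the same order (limma, adjusted p = 0.00603, 0.00171 and 0.0334). The last call, was lost under 8 of the alternatives, among them a fit of only the 2 groups (adjusted p = 0.0761) and leaving out TLR4-T399I replicate 3 (adjusted p = 0.13) or TLR4-D299G replicate 3 (adjusted p = 0.129), and KIF2C was then not called against all 3 other groups. KIF20A, a kinesin of the central spindle, was higher by 0.39 than in untransfected cells and by 0.38 than in the TLR4-WT line (adjusted p = 0.00175 and 0.00613). DLGAP5, which stabilises kinetochore fibres, was higher by 0.36 and 0.40 in those comparisons (adjusted p = 0.00455 and 0.00764). Over the 12 arrays these were among the genes that followed the others most closely: the median correlation with the other 34 was 0.741 for KIF20A, 0.726 for KIF2C and 0.718 for DLGAP5, against -0.0601 for KIF4A and 0.0661 for NUSAP1. These correlations mix differences between groups with the level of each array.

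**Figure D3:**
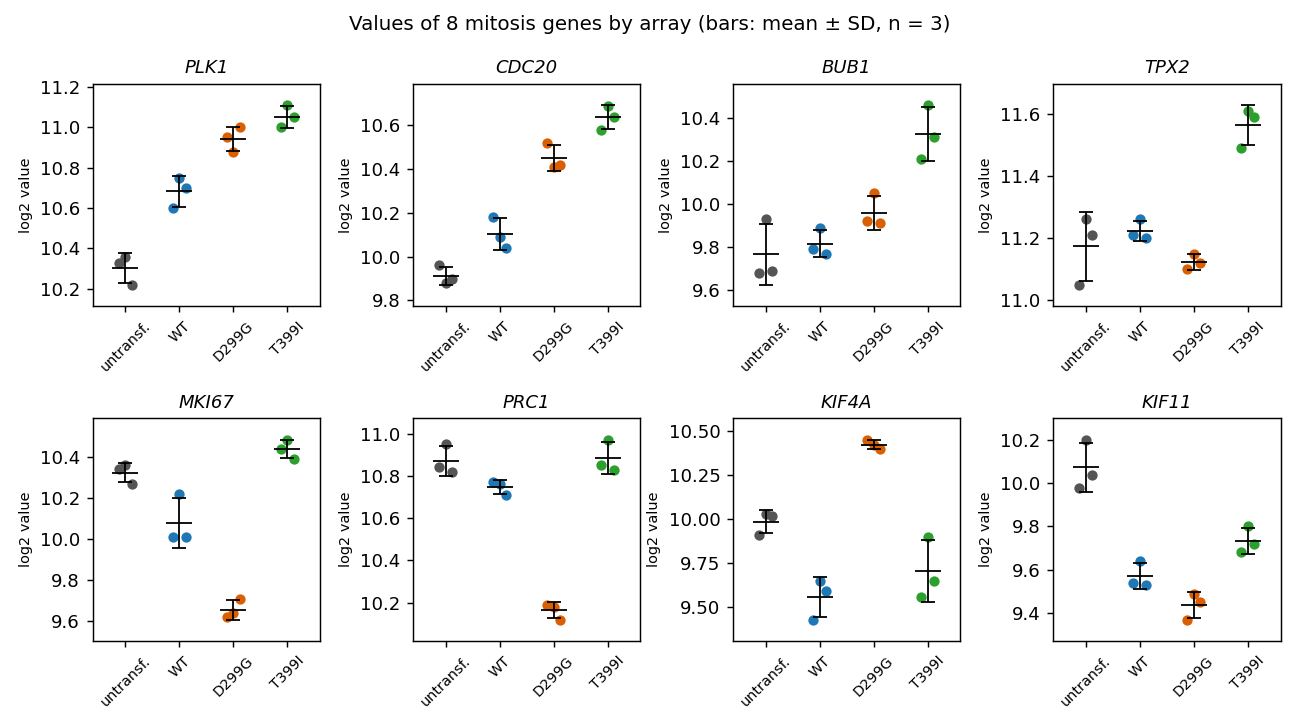
Log2 values of 8 genes in each array, by group, with the mean and SD of 3 arrays as bars, each panel having its own axis. PLK1 and CDC20 are lowest in untransfected cells, BUB1 and TPX2 are highest in the TLR4-T399I line, MKI67 and PRC1 are lowest and KIF4A highest in the TLR4-D299G line, and KIF11 is highest in untransfected cells.

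KIF11, the kinesin that pushes the spindle poles apart, was the one gene set apart as highest in untransfected cells. It read 9.98, 10.20 and 10.04 there, 9.54, 9.64 and 9.53 in TLR4-WT, 9.37, 9.49 and 9.45 in TLR4-D299G, and 9.68, 9.80 and 9.72 in TLR4-T399I cells. No group overlapped another. KIF11 was lower by 0.50, 0.64 and 0.34 in the 3 lines (SE 0.07, limma, adjusted p = 0.000437, 6.98e-05 and 0.00496). Its 20 nearest measured genes on chromosome 10 had a median difference from untransfected cells of -0.30 to -0.28 in the 3 lines, and 10 or 11 of them were called lower in each. Their part in the result was not tested. Set apart means called in the same direction against each of the other 3 groups, which held in untransfected cells for 8.33% of all probe sets on the high side and 7.4% on the low side. The mitotic genes set apart on the low side there were PLK1, AURKB, MAD2L1 and CDC20.

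In the TLR4-WT line, 5 mitotic genes were higher and 9 lower than in untransfected cells (16.1% and 15.1% of all probe sets, 19.3% and 19% of all genes), with a median difference of -0.04 against 0.06 over all genes. That median was -0.0033 without untransfected replicate 2 and -0.0733 without untransfected replicate 1. All of the 5 and 9 remained without the chromosome 15 genes, so that the counts were the same among 31. After quantile normalisation was applied again the split was 9 higher and 9 lower. With all 4 arrays numbered 2 left out it was 2 and 5, where 7.71% and 9.28% of all probe sets were called. CENPF, KIF18A, ASPM and TOP2A were lower in the TLR4-WT line than in each of the other 3 groups, where 1.91% of all probe sets were. KIF18A, a kinesin that dampens chromosome movement at metaphase, read 8.49, 8.67 and 8.49 in the TLR4-WT line, 8.85, 9.02 and 8.89 in untransfected cells, 8.91, 9.11 and 9 in TLR4-D299G, and 9.02, 9.31 and 9.23 in TLR4-T399I cells. The TLR4-WT arrays lay below all 9 others, which overlapped. The difference of the TLR4-WT line from untransfected cells was -0.37 (SE 0.09, limma, adjusted p = 0.0116). KIF18A was 1.37-fold higher in the TLR4-D299G line (adjusted p = 0.0056) and 1.55-fold higher in the TLR4-T399I line (adjusted p = 0.00162) than in the TLR4-WT line.

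ASPM, a spindle pole protein, showed the same order, with the TLR4-WT line at 9.07 ± 0.13 (SD, n = 3) against 9.47 ± 0.05 in untransfected cells, 9.48 ± 0.11 in TLR4-D299G and 9.58 ± 0.07 in TLR4-T399I cells. Its difference from untransfected cells was -0.40 (SE 0.08, limma, adjusted p = 0.00397). The 20 nearest genes of ASPM on chromosome 1 had a median of -0.30 in that comparison, with 9 called lower, and of 0.21 between the TLR4-D299G and TLR4-WT lines, with 9 called higher. Their part in the result was not tested. TOP2A, the topoisomerase that untangles sister chromatids, was lower than in untransfected cells by 0.32 (SE 0.06, adjusted p = 0.00336). Its place among these 4 rests on the call against the TLR4-T399I line (0.24, adjusted p = 0.0392), which was lost under 10 of the alternatives, among them a fit of only the 2 groups (adjusted p = 0.119) and leaving out any 1 TLR4-WT array (adjusted p = 0.0815 to 0.13). It rests also on the call against the TLR4-D299G line, which was lost without TLR4-WT replicate 3 (adjusted p = 0.0565) or TLR4-D299G replicate 2 (adjusted p = 0.0587). CENPF was lower by 0.35 (adjusted p = 0.00814), and its call against the TLR4-D299G line was lost without TLR4-WT replicate 1 (adjusted p = 0.0582) or TLR4-D299G replicate 3 (adjusted p = 0.0522). CENPF lies in a stretch of chromosome 1, from SPATA45 to DNAH14, in which neighbouring genes moved with it: its 20 nearest measured genes had a median difference of -0.55 between the TLR4-WT line and untransfected cells, and 15 of them were called lower. Between the TLR4-D299G and TLR4-WT lines those neighbours had a median of 0.41 and CENPF 0.35. Their part in the result was not tested.

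In the TLR4-D299G line mitotic genes were called in both directions, against untransfected cells in shares near those over all genes. Against untransfected cells 8 were higher and 10 lower (17.5% and 17.9% of all probe sets), and against the TLR4-WT line 8 were higher and 7 lower (7.85% and 9.02%). Of the 18417 genes measured in the same way, 4140 were higher (22.5%) and 3838 lower (20.8%) in the first comparison and 2090 were higher and 2161 lower in the second. The medians were 0.05 and 0.10, and the first was 0.035 without TLR4-D299G replicate 2 and 0.1033 without untransfected replicate 2. Without BUB1B, NUSAP1, KIF23 and CCNB2 the counts were 8 and 6 of 31 against untransfected cells and 8 and 3 against the TLR4-WT line, with medians of 0.09 and 0.12. Leaving out PRC1 as well, which also lies on chromosome 15, gave 8 and 5 and then 8 and 2 of 30. After quantile normalisation was applied again the split of all 35 was 14 higher and 8 lower against untransfected cells, and 13 and 7 against the TLR4-WT line.

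The genes that were higher in the TLR4-D299G than in the TLR4-WT line were PLK1, CDC20, CENPE, CENPF, KIF18A, KIF4A, ASPM and TOP2A, which include the 4 set apart as low in the latter. The call of PLK1 (0.26) was lost under 5 of the alternatives, among them leaving out TLR4-WT replicate 1 (limma, adjusted p = 0.0955), and that of CENPE under 4, among them leaving out the same array (adjusted p = 0.0769). Against untransfected cells they were CCNA2, CCNB1, PLK1, AURKB, MAD2L1, CDC20, KIF4A and NCAPG. NCAPG, a subunit of the condensin complex that compacts chromosomes, read 10.52 to 10.57 in untransfected cells, 10.68 to 10.74 in TLR4-WT, 10.74 to 10.87 in TLR4-D299G and 10.93 to 11.11 in TLR4-T399I cells. It was higher than in untransfected cells by 0.28 in the TLR4-D299G line and by 0.49 in the TLR4-T399I line (SE 0.07, limma, adjusted p = 0.00741 and 0.000248).

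CCNB2, BUB1B, KIF15, KIF23, NUSAP1, PRC1 and MKI67 were lower in the TLR4-D299G line than in each of the other 3 groups, where 3.29% of all probe sets were. All 5 mitotic genes on chromosome 15 were among these 7. PRC1, which bundles the microtubules of the central spindle, read 10.84, 10.95 and 10.82 in untransfected cells, 10.77, 10.76 and 10.71 in TLR4-WT, 10.19, 10.18 and 10.12 in TLR4-D299G, and 10.85, 10.97 and 10.83 in TLR4-T399I cells. The TLR4-D299G arrays lay below all others by more than the spread within any group. PRC1 was 1.63-fold lower than in untransfected cells (log2 difference -0.71, SE 0.06, limma, adjusted p = 1.25e-05) and 1.50-fold lower than in the TLR4-WT line (adjusted p = 9.2e-05).

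NUSAP1, which crosslinks spindle microtubules, read 9.77, 9.80 and 9.79 in the TLR4-D299G line and 10.29 to 10.59 in the 9 other arrays, and was lower by 0.70 against untransfected cells and 0.61 against the TLR4-WT line (SE 0.09, limma, adjusted p = 0.000133 and 0.000663). KIF23, the kinesin of the central spindle that with RACGAP1 forms centralspindlin, read 9.89, 10.14 and 10.06 there and 10.43 to 10.73 elsewhere. It was lower by 0.45 and 0.41 in those comparisons (adjusted p = 0.000642 and 0.00214). KIF23 was also set apart as highest in the TLR4-T399I line, with BUB1, ESPL1, KIF2C and TPX2, where 1.08% of all probe sets were. None of the 35 was set apart as lowest there (1.06% of all probe sets) or as highest in the TLR4-WT line (0.991%). Its rises there were 0.23 and 0.27 against untransfected cells and the TLR4-WT line (adjusted p = 0.0313 and 0.0342). The first was not called with each array centred on its median (adjusted p = 0.0723), and both were lost without TLR4-T399I replicate 2 (adjusted p = 0.0695 and 0.0928) or replicate 3 (adjusted p = 0.0865 and 0.112).

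BUB1B, the checkpoint protein BUBR1, and CCNB2, a mitotic cyclin of the Golgi, moved in opposite directions in the mutant lines. BUB1B read 9.77, 9.89 and 9.88 in untransfected cells, 10.08, 10.02 and 10 in TLR4-WT, 9.52, 9.61 and 9.56 in TLR4-D299G, and 10.04, 10.23 and 10.18 in TLR4-T399I cells. The TLR4-D299G arrays lay below all others. Against untransfected cells BUB1B was lower by 0.28 in the TLR4-D299G line and higher by 0.30 in the TLR4-T399I line (SE 0.07, limma, adjusted p = 0.0079 and 0.00617). Both BUB1B calls were lost with all 4 arrays numbered 2 left out (adjusted p = 0.0783 and 0.0812). The rise was also lost in a fit of only the 2 groups (adjusted p = 0.0534). CCNB2 read 10.52 to 10.61 in the TLR4-D299G line, 10.75 to 10.86 in untransfected cells, 10.86 to 10.96 in the TLR4-WT line and 11.01 to 11.30 in the TLR4-T399I line. It was lower by 0.24 and higher by 0.36 in the mutant lines (SE 0.08, limma, adjusted p = 0.0342 and 0.00477). The first call was lost under 6 of the alternatives, among them leaving out any 1 TLR4-D299G array (adjusted p = 0.0566 to 0.099) or untransfected replicate 2 (adjusted p = 0.107).

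Genes around the chromosome 15 members were low in the TLR4-D299G line too. BUB1B, NUSAP1, KIF23 and CCNB2 lie in the stretch from THBS1 to FAH, in which the 346 other measured genes had a median difference of -0.27 between the TLR4-D299G and TLR4-WT lines, with 10 called higher and 166 lower. Against untransfected cells that median was -0.28, with 29 higher and 186 lower, and in the TLR4-T399I line it was 0.02. PRC1 lies further along the chromosome, after FAH, where 125 other genes had a median of -0.10 against the TLR4-WT line, with 0 higher and 48 lower. The 20 nearest genes of the 5 members had medians of -0.25 to -0.155 in that comparison, while the members themselves differed by -0.61 to -0.35. Their part in the members' fall was not tested.

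**Figure D4:**
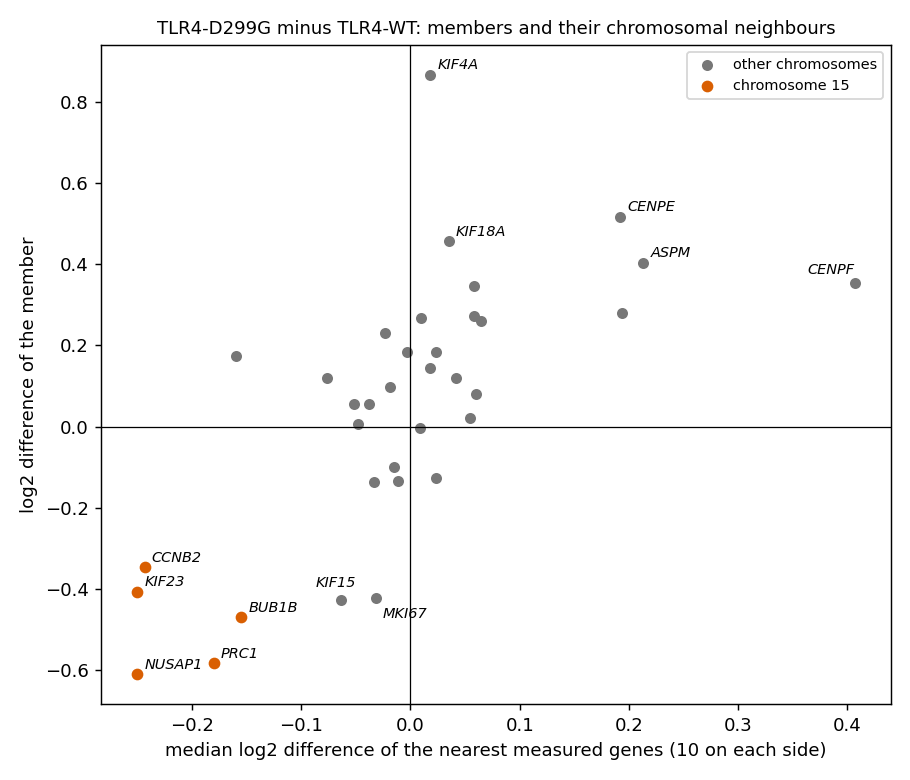
Difference between the TLR4-D299G and TLR4-WT lines for each of the 35 genes (vertical axis, log2) against the median difference of its 20 nearest measured genes, 10 on each side (horizontal axis, log2). The 5 chromosome 15 genes lie at the lower left, with neighbours at -0.25 to -0.155, and KIF4A, MKI67 and KIF15 lie far from 0 on the vertical axis with neighbours within 0.07 of 0.

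MKI67 and KIF15, which lie on chromosomes 10 and 3, were also low in the TLR4-D299G line. MKI67, the Ki-67 protein that coats mitotic chromosomes and is the usual marker of dividing cells, read 10.34, 10.36 and 10.27 in untransfected cells, 10.01, 10.22 and 10.01 in TLR4-WT, 9.62, 9.64 and 9.71 in TLR4-D299G, and 10.44, 10.48 and 10.39 in TLR4-T399I cells. The groups did not overlap. MKI67 was 1.59-fold lower in the TLR4-D299G line than in untransfected cells (log2 difference -0.67, SE 0.07, limma, adjusted p = 4e-05) and 1.34-fold lower than in the TLR4-WT line (adjusted p = 0.00164). In the TLR4-WT line it was lower than in untransfected cells by 0.24 (adjusted p = 0.0232), a call lost under 6 of the alternatives, among them a fit of only the 2 groups (adjusted p = 0.0786) and leaving out TLR4-WT replicate 3 (adjusted p = 0.0893). Its 20 nearest genes on chromosome 10 had medians of -0.01 and -0.03 in the comparisons of the TLR4-D299G line with untransfected cells and the TLR4-WT line. Of these genes 2 were called higher and 5 lower in the first, and 3 and 3 in the second. KIF15, a kinesin that assists KIF11, read 8.14, 8.37 and 8.27 in the TLR4-D299G line and 8.59 to 9.09 in the 9 other arrays. It was lower by 0.70 and 0.43 in those comparisons (SE 0.10, limma, adjusted p = 0.000243 and 0.0102). Its 20 nearest genes on chromosome 3 had a median of -0.06 in both, with 3 called higher and 6 lower, then 0 and 1. What the neighbours of MKI67 and KIF15 contribute was not tested.

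KIF4A, a kinesin of chromosome arms and the central spindle whose partner is PRC1, had its highest mean in the TLR4-D299G line. It read 9.91, 10.03 and 10.02 in untransfected cells, 9.43, 9.65 and 9.59 in TLR4-WT, 10.45, 10.42 and 10.40 in TLR4-D299G, and 9.56, 9.90 and 9.65 in TLR4-T399I cells. The TLR4-D299G arrays lay above all others and the untransfected arrays above those of the remaining lines. KIF4A was 1.82-fold higher in the TLR4-D299G than in the TLR4-WT line (log2 difference 0.87, SE 0.09, limma, adjusted p = 7.67e-05), where it was the gene among the 35 with the largest difference. It was the only mitotic gene set apart as highest in the TLR4-D299G line, where 1.97% of all probe sets were. Against untransfected cells it was higher by 0.44 in that line (adjusted p = 0.00379), and lower by 0.43 in the TLR4-WT line (adjusted p = 0.0048) and 0.28 in the TLR4-T399I line (adjusted p = 0.0385). The last call was lost under 10 of the alternatives, among them with each array centred on its median (adjusted p = 0.056). Its 20 nearest genes on the X chromosome had a median of 0.02 between the TLR4-D299G and TLR4-WT lines, and 7 of them were called higher. Those neighbours had a median of 0.19 between the TLR4-D299G line and untransfected cells, with 7 higher and 1 lower, and of -0.19 between the TLR4-T399I and TLR4-D299G lines, with 0 higher and 7 lower. Their part in the result was not tested.

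Between the mutant lines, 16 mitotic genes were higher in TLR4-T399I than in TLR4-D299G cells and 1 was lower (7.64% and 5.81% of all probe sets, 10.7% and 8.43% of all genes), with a median of 0.22 against -0.02 over all genes. Without the 4 chromosome 15 genes 12 of 31 were higher and 1 lower, with a median of 0.21, and without PRC1 as well 11 and 1 of 30. The larger differences were in genes that were low in the TLR4-D299G line: MKI67 was 1.72-fold higher, PRC1 1.65-fold, KIF23 1.60-fold, NUSAP1 1.58-fold, CCNB2 1.51-fold, BUB1B 1.50-fold and KIF15 1.43-fold. KIF4A was 1.65-fold lower. The 17 calls fell to 10 without TLR4-T399I replicate 2, where 5.35% of all probe sets were called higher and 4.96% lower. They fell to 11 each without TLR4-D299G replicate 1, TLR4-D299G replicate 3 or TLR4-T399I replicate 3. With all 4 arrays numbered 2 left out they fell to 9, where 2.41% and 2.65% of all probe sets were called. Under every alternative tried at the same threshold BUB1B, CCNB2, KIF15, KIF23, KIF4A, MKI67, NUSAP1, PRC1 and TPX2 were called, where those alternatives kept the gene.

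BIRC5 was not called in any comparison with the probe set used, which gave 0.03, 0.05 and 0.19 against untransfected cells in the TLR4-WT, TLR4-D299G and TLR4-T399I lines. Its other probe set gave 0.34, 0.32 and 0.36, so the 2 disagreed in size.

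Other cell cycle genes were examined from lists of related genes. Of 41 further mitosis genes, 21 were higher and 1 lower when TLR4-T399I was set against TLR4-WT (5.9% and 4.48% of all probe sets), with a median of 0.26, and 22 were higher and 1 lower against TLR4-D299G (7.64% and 5.81%), with a median of 0.31. Among them HMMR, a spindle assembly factor, was higher by 0.56 than in the TLR4-WT line, and SKA3, of the kinetochore SKA complex, was 2.15-fold higher than in the TLR4-D299G line (SE 0.09, limma, adjusted p = 1.37e-05). CENPI, a centromere protein, was lower by 0.86 than in the TLR4-D299G line (adjusted p = 9.31e-05). The 22 calls against the TLR4-WT line fell to 10 to 14 when any TLR4-WT array, or TLR4-T399I replicate 2 or 3, was left out. With all 4 arrays numbered 2 left out they fell to 0. The shares of all probe sets called then fell too, from 5.9% higher and 4.48% lower to 1.08% and 0.76%. Against untransfected cells these genes had 5 higher and 10 lower in TLR4-WT, 6 and 14 in TLR4-D299G, and 19 and 4 in TLR4-T399I cells, where 16.1% and 15.1%, 17.5% and 17.9%, and 14.6% and 14.8% of all probe sets were called. Between the TLR4-D299G and TLR4-WT lines they had 6 and 9 (7.85% and 9.02%).

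Genes of DNA replication act in S phase. Of 30 measured, 2 were higher and 3 lower in TLR4-T399I than in TLR4-WT cells (5.9% and 4.48% of all probe sets), with a median of 0.04, and 1 was higher and 0 lower with each array centred on its median. The 5 calls fell to 1, 1 and 2 without TLR4-WT replicates 1, 2 and 3, to 2 without TLR4-T399I replicate 2 or 3, and to 3 without any 1 TLR4-D299G array or untransfected replicate 1. In the TLR4-D299G line 0 were higher and 18 lower than in the TLR4-WT line (7.85% and 9.02% of all probe sets), with a median of -0.28. RFC3, a subunit of the clamp loader, was lower by 0.67 (SE 0.06, limma, adjusted p = 3.11e-05), and MCM6, of the replicative helicase, by 0.51 (adjusted p = 0.000194). Between the mutant lines 21 were higher in the TLR4-T399I line and 0 lower (7.64% and 5.81% of all probe sets), with a median of 0.31. With all 4 arrays numbered 2 left out, the 18 fell to 3 and the 21 to 3. The shares of all probe sets called higher and lower fell too. They were then 4.01% and 3.55% for TLR4-D299G against TLR4-WT, and 2.41% and 2.65% for TLR4-T399I against TLR4-D299G. Against untransfected cells 12 were higher and 1 lower in the TLR4-WT line (16.1% and 15.1% of all probe sets) and 14 and 2 in the TLR4-T399I line (14.6% and 14.8%). In the TLR4-D299G line 4 were higher and 13 lower (17.5% and 17.9%), or 2 and 14 with each array centred on its median. These 17 calls fell to 10 without TLR4-D299G replicate 2 or untransfected replicate 2 and to 11 without TLR4-D299G replicate 3. The difference between the lists themselves was not tested.

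Of the 14 measured regulators of cell cycle transcription, 7 were higher and 0 lower when TLR4-T399I was set against TLR4-D299G (7.64% and 5.81% of all probe sets), and 0 were higher and 5 lower in the TLR4-D299G than in the TLR4-WT line (7.85% and 9.02%). FOXM1, an activator of mitotic genes, was 1.53-fold higher in the TLR4-T399I than in the TLR4-D299G line (log2 difference 0.61, SE 0.09, limma, adjusted p = 0.000729) and higher by 0.35 than in the TLR4-WT line (adjusted p = 0.025). LIN54, the subunit of MuvB that binds the CHR, was lower in the TLR4-D299G than in the TLR4-WT line by 0.66 (adjusted p = 0.000193). LIN52, another subunit, was lower than in untransfected cells by 0.68 (adjusted p = 0.000111). E2F7, an atypical E2F that represses, was lower in the TLR4-D299G than in the TLR4-WT line by 0.79 (adjusted p = 1.78e-05). Against untransfected cells the list had 2 higher and 2 lower in TLR4-WT, 2 and 7 in TLR4-D299G, and 4 and 3 in TLR4-T399I cells, where 16.1% and 15.1%, 17.5% and 17.9%, and 14.6% and 14.8% of all probe sets were called. With each array centred on its median the TLR4-D299G split was 0 and 7. With quantile normalisation applied again the TLR4-T399I split was 5 and 2. Between the TLR4-T399I and TLR4-WT lines (5.9% and 4.48% of all probe sets) it had 2 and 2, or 2 and 1 with each array centred on its median. These 4 calls fell to 2 without TLR4-WT replicate 1 or 3 or TLR4-T399I replicate 2 or 3, and the 7 calls of TLR4-T399I against untransfected cells fell to 4 without TLR4-T399I replicate 3 or untransfected replicate 1.

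The G1 cyclins and kinases and the cell cycle inhibitors had calls in both directions. The shares of all probe sets called higher and lower against untransfected cells were 16.1% and 15.1% in TLR4-WT, 17.5% and 17.9% in TLR4-D299G, and 14.6% and 14.8% in TLR4-T399I cells. Of 9 G1 genes, 5 were higher and 3 lower in the TLR4-WT line than in untransfected cells, 2 and 2 in TLR4-D299G, and 4 and 3 in TLR4-T399I cells. CCND2, a D-type cyclin, read 7.75 in untransfected cells, 8.40 in TLR4-WT, 8.72 in TLR4-D299G and 9.71 in TLR4-T399I cells, and was 3.88-fold higher in the last than in the first (log2 difference 1.96, SE 0.07, limma, adjusted p = 3.61e-08). Of 11 measured inhibitors, 1 was higher and 3 lower in the TLR4-WT line than in untransfected cells, 2 and 4 in TLR4-D299G, and 3 and 4 in TLR4-T399I cells. RB1, the retinoblastoma protein that holds E2F inactive, was lower in all 3 lines, by 0.86, 1.32 and 0.76 (SE 0.11, limma, adjusted p = 0.000134, 5.55e-06 and 0.000313). The nearest genes of RB1 were not examined as they were for the mitotic genes. Whether they moved with RB1 was therefore not tested. WEE1, the kinase that inhibits CDK1, was lower in the TLR4-T399I line by 0.64 and in the TLR4-WT line by 0.46 (adjusted p = 1.5e-05 and 0.000159). Its mean in the TLR4-D299G line was 9.09, near the 9.05 of the TLR4-WT line and below the 9.51 of untransfected cells. Between the lines the G1 genes had 2 higher and 4 lower for TLR4-D299G against TLR4-WT (7.85% and 9.02% of all probe sets), 2 and 2 for TLR4-T399I against TLR4-WT (5.9% and 4.48%) and 5 and 2 for TLR4-T399I against TLR4-D299G (7.64% and 5.81%), and with each array centred on its median the latter pair of splits became 2 and 0 and 4 and 0. The 7 calls between the mutant lines fell to 2 to 4 without any 1 TLR4-D299G array or without TLR4-T399I replicate 2 or 3, and the 4 against TLR4-WT fell to 1 and 2 without TLR4-WT replicates 2 and 3. The inhibitors had 2 and 2, 3 and 1, and 3 and 2 in the same order, with 3 and 1 in the last after centring. Their 5 calls between the mutant lines fell to 2 or 3 without any 1 TLR4-D299G array or TLR4-T399I replicate 3, and the 4 between TLR4-D299G and TLR4-WT fell to 2 without TLR4-WT replicate 1 or 2 or TLR4-D299G replicate 3.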

How the data were processed

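Gene expression was measured in 12 RNA samples of Caco-2 cells, 3 in each of 4 groups. The authors used RMA in Affymetrix Expression Console 1.0, per the submitters' processing notes. The deposited values are log2 expression values for 33297 probe sets, with 0 missing, and were used without further normalisation or filter. In the annotation 19460 probe sets had 1 gene symbol, 1754 had several and 12083 had none. The array's genome build is not given in the sources used here, so gene order and promoter sequences were taken from RefSeq (GRCh38.p14) by symbol.

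With limma 3.58.1 in R 4.3.3, all 12 arrays were fitted with 1 mean per group (8 residual degrees of freedom). Empirical Bayes moderation was used without trend, and the tests were two-sided. Their p-values were adjusted by the Benjamini-Hochberg method over all probe sets for each of 6 comparisons. Fold changes are differences of group means of log2 values. The fit was tested on simulated data.

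The 35 genes and all lists were chosen with earlier results of these data known. The related lists were DNA replication, other mitosis genes, G1 cyclins and kinases, cell cycle inhibitors and cell cycle transcription regulators. The marker lists were intestinal epithelium, fibroblast, leukocyte and endothelium. From a related list, at most 3 called genes per direction and comparison with the largest change could be named, where the groups did not overlap, and markers were named as examples. Alternatives changed the scaling, filter, prior, arrays in the fit, block, probe set, threshold and members.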

Additional observations from a re-analysis of the deposited data

Results flagged for a closer look

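In 4 genes the lines that share a comparison with untransfected cells moved in opposite directions, both changes were called, and so was the difference between the lines (limma). KIF4A was higher than in untransfected cells in the TLR4-D299G line and lower in the TLR4-WT line, and the lines differed by 0.87. It was also lower in the TLR4-T399I line, which differed from the TLR4-D299G line by -0.72. CCNB2 was lower in the TLR4-D299G line and higher in the TLR4-T399I line, a difference of 0.60 between them. The fall of CCNB2 against untransfected cells was lost under 6 of the alternatives (adjusted p = 0.107 without untransfected replicate 2) and its rise under 1. The fall of KIF4A in the TLR4-T399I line was lost under 10 and the rise of KIF23 there under 7. The rise of BUB1B in that line was lost under 2 and its fall in the TLR4-D299G line under 1. BUB1B differed in the same way by 0.59 and KIF23 by 0.68. These last 3 genes lie in the stretch of chromosome 15 whose other genes had a median of 0.29 between the TLR4-T399I and TLR4-D299G lines.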

How the results depend on the processing

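No call changed direction under any alternative tried. Of the 108 calls on the 35 genes, 102 were kept with each array centred on its median, 106 with quantile normalisation applied again, 87 with only the groups compared in the fit and 58 with all 4 arrays numbered 2 left out, an alternative chosen after seeing the data. With those arrays left out the counts of called genes were 7 for TLR4-WT against untransfected cells, 4 for TLR4-T399I against TLR4-WT and 9 for TLR4-T399I against TLR4-D299G, and 22 genes differed among the groups. Of all probe sets, 7.71% were then called higher and 9.28% lower for TLR4-WT against untransfected cells. These shares were 1.08% and 0.76% for TLR4-T399I against TLR4-WT, and 2.41% and 2.65% for TLR4-T399I against TLR4-D299G. At an adjusted p under 0.01, 10 genes were called between TLR4-T399I and TLR4-D299G. Shares of all probe sets are not given for these 10 genes or for the 22 that differed among the groups. With quantile normalisation applied again the median for TLR4-D299G against untransfected cells was 0.136 rather than 0.0533.

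Leaving out 1 array at a time, the called genes against untransfected cells numbered 11 to 17 for TLR4-WT, 15 to 19 for TLR4-D299G and 18 to 24 for TLR4-T399I. They numbered 12 to 17 for TLR4-D299G against TLR4-WT, 16 to 25 for TLR4-T399I against TLR4-WT and 10 to 21 for TLR4-T399I against TLR4-D299G, and 32 to 34 differed among the groups. The medians were -0.0733 to -0.0033, 0.035 to 0.1033, 0.2483 to 0.35, 0.0717 to 0.1383, 0.305 to 0.3767 and 0.18 to 0.2633 in the same order. The cause of these shifts was not tested. Between TLR4-T399I and TLR4-D299G the 10 calls came without TLR4-T399I replicate 2, where 5.35% of all probe sets were called higher and 4.96% lower. The 21 calls came without TLR4-T399I replicate 1, where these shares were 8.37% and 5.69%.

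The main fit did not pair the samples by replicate number. Deviations of same-numbered arrays correlated from -0.0791 to 0.274 over probe sets, and 5 of 18 pairs were above 0.1, against 2 of 36 pairs of unlike numbers. For arrays numbered 2, r was 0.274 between TLR4-T399I and untransfected, 0.244 between TLR4-T399I and TLR4-WT, and 0.146 between TLR4-WT and untransfected cells. It was -0.0791 to -0.0081 between TLR4-D299G and the other groups. Whether the number marks a shared batch was not tested. With the number as a replicate block the counts were 18, 21, 24, 18, 24 and 20 in that order, and all 108 calls were kept.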
